A study of Homo sapiens with 8 samples.

Results

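Long intergenic noncoding RNAs with a LINC symbol were examined on 8 expression arrays of human lung cancer cells. The genes were chosen by their symbol and by their signal. A gene was included when its symbol began with LINC and a number and at least 1 of its probes was well above background in the red or the green channel on every array. Of 1128 LINC genes with a probe on the array, 232 met this rule, out of 12842 genes of any kind that met it. According to the gene table, 231 of the 232 are long noncoding RNAs, and the remaining gene, *LINC02210-CRHR1*, is a read-through into a protein-coding gene.

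Each array compared a treated RNA, labeled with Cy5 (red), with a control RNA of the same cell line, labeled with Cy3 (green). EBC-1 and SK-MES-1, lung squamous cell carcinoma (LUSQ) lines, were transfected with *miR-150-3p*, the passenger strand of *pre-miR-150*, with 1 array per line. SBC-3, a small cell lung cancer line, received the siRNAs siDONSON-1, siDONSON-2 and siDONSON-3 against *DONSON*, a replication fork protein, with 1 array per siRNA. A549, a lung adenocarcinoma line, was edited at *LOXL2*, a lysyl oxidase family gene, with CRISPR/Cas9, and its 3 arrays are named A549-GE1, A549-GE2 and A549-GE3. The control of the transfections is labelled as mock and also as not transfected, and that of A549 as not edited. The labels do not say whether the edited cells were clones, or whether the arrays of a line came from separate cultures, so the p-values measure only the spread between these arrays, which may be technical. No array had its dyes exchanged, so the effect of a treatment and a dye bias of a probe cannot be told apart.

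Long intergenic noncoding RNAs are transcribed from stretches between protein-coding genes, and many are capped, spliced and polyadenylated like mRNAs but are not translated. Most are present at far lower levels than mRNAs and in few cell types. Known members act in the nucleus on chromatin and transcription, or in the cytoplasm as binding partners of miRNAs and proteins. LINC symbols are given to genes of this kind that have no other name, so the group holds many genes with no known function.

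All arrays were on 1 slide. Between 48.4% and 56.2% of the spots per array were well above background in red, and between 41.1% and 46.3% in green. *DONSON* had log2 ratios of -2.15, -1.79 and -2.11 on the siDONSON arrays, and *LOXL2* had -2.49, -2.67 and -2.59 on the *LOXL2* arrays. In the green channel, the small cell markers *NEUROD1*, *CHGA* and *SYP* were well above background on all 3 SBC-3 arrays, while *POU2F3* and *INSM1* were not on any array. The squamous markers *KRT5*, *KRT6A* and *DSG3* and the adenocarcinoma marker *SFTPB* were not well above background in any line, and *NKX2-1* was not in A549. *CHGA* was also above background on the 3 A549 arrays. *TP63* was well above background in SK-MES-1 and on the 3 SBC-3 arrays, and not in EBC-1.

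A smaller share of the LINC genes was detected than of other gene classes on the array. It was 20.6% of those on the array, beside 57.2% of all named genes, 62.6% of genes with an NM (mRNA) accession, 47.6% of divergent transcripts and 32.8% of antisense RNA genes. Of the LINC genes that did not meet the rule, 571 had no probe above background on any array and 43 had one on 7 arrays. The signals of those that did were low, as 165 of the 232 (71.1%) fell in quartile 1, the dimmest, of the 12842 genes by mean signal of both channels, and 8 in quartile 4. The red channel carried much of the detection. It was well above background on all 8 arrays for 229 of the 232 genes and the green channel for 135 (in at least 1 probe of the gene), and 7 genes had no array with green above background. The other 97 genes entered through red on some array, so their ratios were not independent of the rule.

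The dimmest genes inside the rule were *LINC01770*, *LINC01607* and *LINC00871*. On their dimmest array, the brighter channel read 15.7, 17.0 and 17.9 intensity units. *LINC01909*, *LINC02268* and *LINC01270* stayed outside because of 1 array each. *LINC01909* lacked siDONSON-2, where the brighter channel read 24.4. *LINC02268* lacked SK-MES-1, at 14.4, and *LINC01270* lacked EBC-1, at 8.13. The background of the arrays differed, so the limit was no fixed signal.

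Log2 ratios of red over green were read as treated over control, so that a value above 0 means a higher level after treatment. For LINC genes, the median ratio was above that of all genes on 7 of the 8 arrays. EBC-1 had a median of 0.22, beside 0.03 for all genes. SK-MES-1 had 0.11, beside 0.01. On A549-GE1, A549-GE2 and A549-GE3 it was 0.12, 0.16 and 0.12, beside 0.00, 0.01 and 0.01 for all genes. The siDONSON arrays gave 0.01, 0.07 and 0.04, beside 0.02, 0.05 and 0.02. In EBC-1, 70.3% of the LINC genes had a ratio above 0, compared with 52.4% of all genes.

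**Figure D1:**
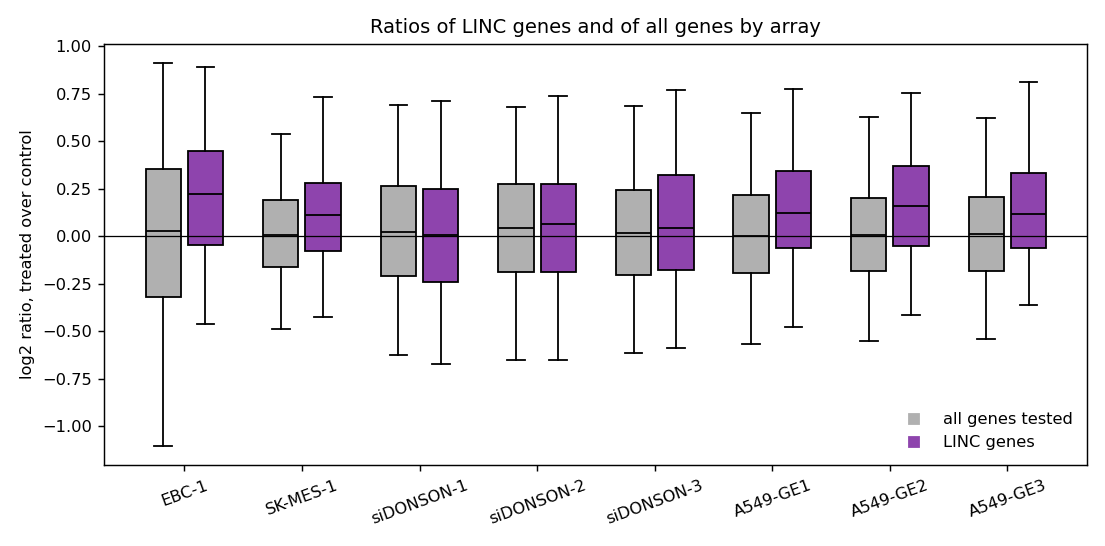
Log2 ratios of treated over control (vertical axis) for the 12842 genes tested (grey) and the 232 LINC genes (purple) on each array. Boxes span the quartiles with the median as a line, and whiskers reach the percentiles 5 and 95. The purple medians stand above the grey ones in EBC-1, SK-MES-1 and the A549 arrays, and close to them on the siDONSON arrays.

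A similar shift was measured where the control channel was bright enough. In the 135 genes with green above background on all arrays, the medians of EBC-1 and SK-MES-1 were 0.21 and 0.11, and those of the A549 arrays 0.12, 0.16 and 0.11. The signal moved with the ratio in genes as a whole. In quartile 1, the median of all genes was 0.08 for *miR-150-3p* and 0.04 for *LOXL2*, and that of the LINC genes in the same quartile was 0.15 and 0.11. In quartile 4 all genes had -0.03 and 0.00, and the 8 LINC genes 0.08 and 0.12. The part of signal strength in the shift was not tested.

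The first comparison asked which genes changed when *miR-150-3p* was added to LUSQ cells. Among the LINC genes, *LINC00618* fell and 14 genes rose. The test was limma over all 8 arrays, with each group's mean tested against 0 and Benjamini-Hochberg adjustment over the 12842 genes at a threshold of 0.05. The SE beside a mean is that of limma, from a spread per gene estimated over all 8 arrays. It therefore does not measure how closely the arrays of 1 group agree. The 1 lower gene is 0.431% of the 232, beside a background of 4.22% of all genes tested, and the 14 higher genes are 6.03%, beside 3.38%. Of the 14, 7 had a green channel above background on all 8 arrays. The other 7 lacked it on 1 or both *miR-150-3p* arrays and met the rule there through red, the treated channel, alone. The share of 6.03% thus rests in part on the rule and is a description.

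*LINC00618*, a gene described in leukaemia cells in connection with ferroptosis, has 1 probe, which was above background in both channels on all arrays. In EBC-1 its control signal was 434 and its signal after *miR-150-3p* 36.0, a log2 ratio of -3.59. In SK-MES-1 the signals were 420 and 105, a log2 ratio of -2.0. On the siDONSON arrays the ratio was -0.63, -0.24 and -0.40, and on the A549 arrays 0.30, 0.39 and 0.50. Only the pair of *miR-150-3p* arrays thus lay below -1, and they did not overlap with the others. The mean for *miR-150-3p* was -2.80 ± 0.30 (SE, n = 2, limma adjusted p = 0.00631), the lowest of the 12842 genes. Single genes were lower in each line, as *LINC00618* ranked 3 (EBC-1) and 2 (SK-MES-1) from below. Against the mean of the other 6 arrays, the difference was -2.78 ± 0.35 (SE, limma adjusted p = 0.0147). The gene is the lowest of these same values, so this difference and the lack of overlap add no support. The other arrays are of other cell lines, so treatment and line cannot be told apart in it. With another background correction (normexp, then loess) its mean was -0.93. With the spread of the *miR-150-3p* arrays alone, the limma adjusted p was 0.337, and over all alternatives it ranged from 0.000379 to 0.337.

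Over the 8 arrays, the genes whose ratios followed those of *LINC00618* most closely were *WBP1*, *PTPRS* and *VAV2*, each with a Pearson r of 0.98 among 12841 genes searched. They were chosen for this likeness, and their changes were smaller. In the same order of lines, *WBP1* had log2 ratios of -0.63 and -0.39, *PTPRS* of -0.80 and -0.34, and *VAV2* of -0.93 and -0.67.

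The promoter of *LINC00618* is shown as that of the lowest gene, and 2 others for genes with green above background on all 8 arrays. *LINC00540* had the widest range of control levels between the cell lines, and *LINC02256* the highest mean in *LOXL2*-edited cells. Each sequence runs from 250 bases before to 50 after the RefSeq start, in the build GRCh38.p14, and the capitals mark the dinucleotide CG, the same on both strands. The windows are chr14:96943329-96943628 on the + strand, chr13:22210035-22210334 on the + strand and chr15:32536509-32536808 on the + strand. They hold 8, 3 and 35 CG, and at least as many are in 60.1%, 81.0% and 14.0% of the 27305 promoters of the table.
LINC00618: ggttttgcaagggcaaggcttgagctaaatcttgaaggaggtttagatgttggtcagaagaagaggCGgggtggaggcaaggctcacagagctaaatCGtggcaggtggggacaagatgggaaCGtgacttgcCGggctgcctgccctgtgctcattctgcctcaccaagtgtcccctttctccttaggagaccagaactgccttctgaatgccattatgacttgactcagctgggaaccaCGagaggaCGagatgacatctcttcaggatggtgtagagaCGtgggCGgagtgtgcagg
LINC00540: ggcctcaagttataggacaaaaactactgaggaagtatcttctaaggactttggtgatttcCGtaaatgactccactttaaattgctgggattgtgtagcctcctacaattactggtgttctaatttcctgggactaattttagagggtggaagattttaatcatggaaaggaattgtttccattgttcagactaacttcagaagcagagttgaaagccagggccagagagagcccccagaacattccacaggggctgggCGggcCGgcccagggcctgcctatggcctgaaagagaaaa
LINC02256: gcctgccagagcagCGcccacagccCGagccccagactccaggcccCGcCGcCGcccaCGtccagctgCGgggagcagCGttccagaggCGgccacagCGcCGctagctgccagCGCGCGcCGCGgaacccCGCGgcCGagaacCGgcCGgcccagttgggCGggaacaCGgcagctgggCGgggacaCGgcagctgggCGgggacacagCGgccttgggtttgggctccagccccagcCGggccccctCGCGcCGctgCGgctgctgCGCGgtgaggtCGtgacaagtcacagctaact
The table held a promoter for 171 of the 232 genes, which is 73.7%, so a comparison of their base composition with that of other genes is void.

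Among the higher genes, *LINC00482* had a mean log2 ratio of 0.93 ± 0.12 over its 3 probes (SE, n = 2, limma adjusted p = 0.0131), but the probes disagreed. In EBC-1 they had 0.00, 0.28 and 2.65, and in SK-MES-1 0.28, 1.09 and 1.28. The probe with the highest ratio had dim control signals, of 24.6 and 20.5, and was above background in green on 4 of the 8 arrays. Without it, the mean was 0.41 and did not pass (limma adjusted p = 0.106), nor did the brightest probe alone at 0.68 (limma adjusted p = 0.0796). *LINC00938*, with 1 probe above background in both channels, had 0.62 and 0.63, and a mean of 0.62 ± 0.10 (SE, n = 2, limma adjusted p = 0.0221). Both lines gave close values for this gene. *LINC00853* had 1.06 and 0.73, with green above background on 1 of the 2 arrays (limma adjusted p = 0.0222). On the array without it, this gene met the rule through the red channel alone, so its values are a description. The mean of *LINC00853* fell from 0.89 to 0.20 with normexp and loess and no longer passed (limma adjusted p = 0.103).

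The highest mean ratios belonged to genes whose control signal was not well above background on either array. They met the rule on these arrays through the red channel alone, so their values are a description. *LINC00871* had red signals of 33.4 and 17.9 (EBC-1, SK-MES-1) and green ones of 8.63 and 6.87 (limma adjusted p = 0.00457). A second probe of *LINC00871* was above background only on the SBC-3 arrays and did not count. For *LINC01431* (limma adjusted p = 0.0225 for its mean ratio), the computed lower bound of the rise with *miR-150-3p* was 1.61-fold, a log2 of 0.69. This bound sets the mean red signal, after scaling between arrays, against a green limit. The limit is the lowest green signal that was well above background on each array, or the gene's own if higher. Such a bound leaves out the error of the red signal and is open to dye bias. With normexp and loess, the mean of *LINC01431* was 0.14 and that of *LINC00871* 0.08, and neither passed (limma adjusted p = 0.16 and 0.475). The bound of *LINC01499* was 1.19-fold (limma adjusted p = 0.0184 for its mean ratio). For *LINC02202* the gene's own dim control signal set the bound, which then equals its measured ratio, so no fold is given (limma adjusted p = 0.0442). For *LINC00871* and *LINC01743* (limma adjusted p = 0.049) the bound was under 1, so no fold is given either. Over the alternatives, *LINC00871* was past the threshold in 12 of 16, *LINC01431* in 9 of 16, *LINC00482* in 12 of 18, *LINC00853* in 10 of 16, *LINC00938* in 11 of 18 and *LINC01743* in 4 of 16.

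No other gene passed in the lower direction. The next lowest means with the same sign in both lines were those of *LINC01843* at -0.68 ± 0.24 (SE, n = 2, limma adjusted p = 0.0977) and *LINC01554* at -0.65 ± 0.31 (SE, n = 2, limma adjusted p = 0.195). *LINC01389* was at -0.64 and *LINC01198* at -0.63, and neither passed. *LINC01198* had -0.30 (EBC-1) and -0.97 (SK-MES-1).

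EBC-1 and SK-MES-1 had the same sign in 154 of the 232 genes, which is 66.4%, beside 68.3% of all genes tested. Both were above 0 in 117 and below 0 in 37. Across the LINC genes, Pearson's r between the lines was 0.48 and Spearman's rho 0.39, beside 0.48 and 0.50 across all genes, and r was 0.38 over the 231 LINC genes other than *LINC00618*. Genes are not independent replicates, and both arrays share the slide and the dye orientation. By the software's own 95% error limits, 45 genes of EBC-1 (19.4%) and 24 of SK-MES-1 (10.3%) departed from 0, beside 36.7% and 13.5% of all genes. Without EBC-1, 1 gene was lower and 0 higher (25 at an unadjusted p under 0.05), and without SK-MES-1 there were 8 and 25. The SD over the 232 genes was 0.52 in EBC-1 and 0.40 in the other line. The higher count was 3, 3 and 5 without A549-GE1, A549-GE2 and A549-GE3, and 9 without siDONSON-3.

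**Figure D2:**
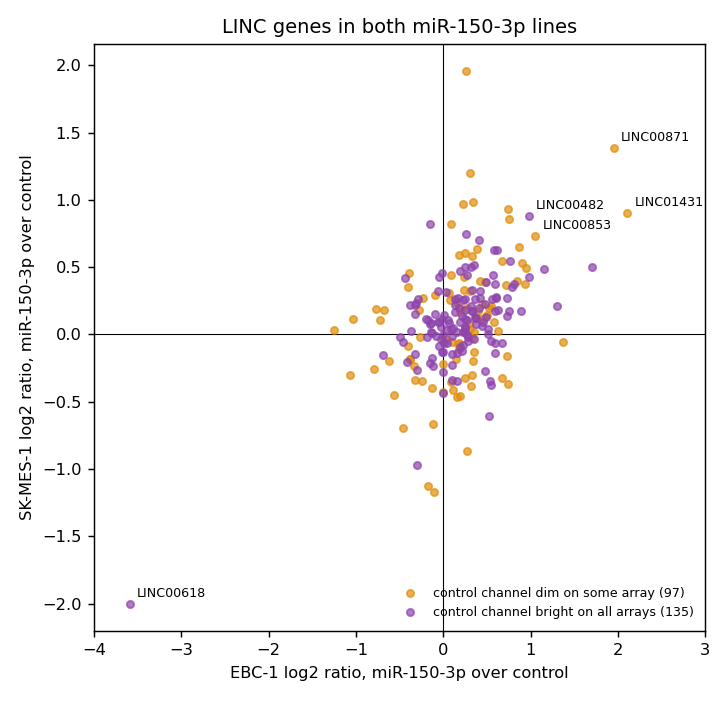
Log2 ratio of *miR-150-3p* over control in EBC-1 (horizontal) and SK-MES-1 (vertical) for the 232 LINC genes. Purple points are the 135 genes with the control channel above background on all arrays and orange points the other 97. *LINC00618* stands alone at -3.59 and -2.0, and *LINC00871* and *LINC01431*, at the right, are orange.

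The siDONSON arrays asked what changes in small cell lung cancer cells when *DONSON* is depleted. In SBC-3, 11 LINC genes fell and 7 rose (limma, as above). These are 4.74% and 3.02% of the 232, beside backgrounds of 3.26% and 4.81% of all genes tested. Of the 11 lower genes, 9 had green above background on all 8 arrays, as had 5 of the 7 higher ones. The other 2 higher genes met the rule on some siDONSON array through the red channel alone. With normexp and loess the split was 8 lower and 9 higher.

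*LINC02245* had log2 ratios of -1.0, -0.72 and -0.92 with siDONSON-1, siDONSON-2 and siDONSON-3, and a mean of -0.88 ± 0.09 (SE, n = 3, limma adjusted p = 0.00396). *LINC01023* had -0.62, -0.95 and -0.86, and *LINC01564* had -0.88, -0.49 and -1.09. Their means were -0.81 ± 0.12 (SE, n = 3, limma adjusted p = 0.0128) and -0.82 ± 0.12 (SE, n = 3, limma adjusted p = 0.0116). All values of these genes lay below 0. With normexp and loess, the mean of *LINC01564* was -0.14 and did not pass (limma adjusted p = 0.0796).

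*LINC01186* had the lowest mean, -1.16 ± 0.25 (SE, n = 3, limma adjusted p = 0.0299). Its arrays differed widely, with -0.51, -2.08 and -0.89, and siDONSON-2 was the lowest. *LINC01424* had -1.02, -1.24 and -0.66, with a mean of -0.97 ± 0.21 (SE, n = 3, limma adjusted p = 0.0313). It also had -1.03 in EBC-1 with *miR-150-3p*, but 0.11 in SK-MES-1.

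The higher genes changed less. *LINC00342* had 0.72, 0.53 and 0.58, and a mean of 0.61 ± 0.10 (SE, n = 3, limma adjusted p = 0.0151). *LINC01793* had 0.57, 0.38 and 0.50, and a mean of 0.48 ± 0.08 (SE, n = 3, limma adjusted p = 0.0169). *LINC00674* had a mean of 0.43 ± 0.10 (SE, n = 3, limma adjusted p = 0.0422). *LINC01501*, with green above background on 1 of 3 arrays, had 1.02, 0.33 and 0.42 (limma adjusted p = 0.0361). *LINC01273* passed (limma adjusted p = 0.0236), but its control signal was not well above background on any siDONSON array and the bound was under 1. Where their controls were dim, *LINC01501* and *LINC01273* met the rule through the red channel alone, so their values are a description. Against the mean of the other arrays, *LINC01273* stood at -0.42 and *LINC01793* at -0.15, as both were also high elsewhere. Over the alternatives, *LINC02245* was past the threshold in 18 of 19, *LINC01023* in 17 of 19, *LINC01564* in 16 of 19, *LINC00342* and *LINC01793* in 14 of 19, *LINC01186* in 12 of 19, *LINC00674* in 9 of 19, *LINC01273* in 7 of 17, and *LINC01424* and *LINC01501* in 6 of 17.

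Outside the called genes, the siRNAs had different extremes. *LINC01539* had 2.38 with siDONSON-1 and 1.77 with siDONSON-2 but -0.17 with siDONSON-3, and did not pass (limma adjusted p = 0.0793). *LINC01160* had 2.41 with siDONSON-3 only, with 0.36 and -0.57 on the others. These genes were picked as the extremes of an array after the values were seen. Between arrays, the SD of the log2 difference over the 135 genes was 0.22 to 0.25 in the green channel and 0.31 to 0.47 in the red one. Without siDONSON-3, 1 gene was lower and 1 higher, and without siDONSON-1 there were 6 and 1. The values of A549-GE1, A549-GE2 and A549-GE3 also enter the shared spread. Without each of them in turn, 4, 3 and 4 genes were lower and 2, 2 and 3 higher.

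In A549 cells edited at *LOXL2*, 23 LINC genes rose and 3 fell (limma, as above). These are 9.91% and 1.29% of the 232, beside backgrounds of 7.16% and 6.68% of all genes tested. Of the 23, 17 had green above background on all 8 arrays and 1 more on all 3 A549 arrays. The rest met the rule on some A549 array through the red channel alone. The share of 9.91% thus rests in part on the rule and is a description. The arrays of this group were close to each other, with an SD of the log2 difference over the 135 genes of 0.17 to 0.21 in green and 0.19 to 0.20 in red.

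*LINC02256* had log2 ratios of 1.39, 1.14 and 1.17 on A549-GE1, A549-GE2 and A549-GE3. Its mean was 1.23 ± 0.11 (SE, n = 3, limma adjusted p = 0.00121), and on the other 5 arrays its ratio lay between -0.36 and 0.34. The groups did not overlap, and the difference from the other arrays also passed (limma adjusted p = 0.00598). The gene was picked from these same values, so neither adds support. Each treatment was given to its own line or lines, so treatment and cell line cannot be told apart in such a difference. *LINC01273* had 1.32, 1.66 and 1.49, with a mean of 1.49 ± 0.15 (SE, n = 3, limma adjusted p = 0.0015). Here its control signal was above background on all 3 arrays.

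*LINC02298* had 0.97, 0.91 and 0.86 on the A549 arrays and -0.43, -0.34 and -0.49 on the siDONSON arrays. The mean was 0.91 ± 0.08 (SE, n = 3, limma adjusted p = 0.00121) for *LOXL2* and -0.42 ± 0.08 (SE, n = 3, limma adjusted p = 0.0249) for siDONSON. It was named after its values were seen, as a gene called in opposite directions. *LINC00467*, a gene repressed by *MYCN* in neuroblastoma, had 0.77, 0.64 and 0.59, and a mean of 0.67 ± 0.14 (SE, n = 3, limma adjusted p = 0.0173).

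*LINC01607* and *LINC02614* had high ratios on dim controls. *LINC01607* had 0.78, 1.58 and 1.44, and *LINC02614* had 1.72, 1.59 and 0.60, each with green above background on 1 of 3 arrays (limma adjusted p = 0.00302 and 0.0266). *LINC01431* had 1.03, 0.73 and 1.44, with green above background on 2 of 3 arrays (limma adjusted p = 0.0168). For *LINC01711* (limma adjusted p = 0.0288 for its mean ratio) only a bound of 1.74-fold is given, as its control was not above background on any A549 array. With normexp and loess the means fell, to 0.17 for *LINC01607*, 0.18 for *LINC02614* and 0.20 for *LINC01431*. Over the alternatives, *LINC02256* was past the threshold in 19 of 19, *LINC01273* in 17 of 17 and *LINC00467* in 15 of 19. *LINC01607* was past it in 17 of 17, and *LINC02614* and *LINC01431* in 13 of 17. On the A549 arrays with dim controls, *LINC01607*, *LINC02614*, *LINC01431* and *LINC01711* met the rule through the red channel alone. Their ratios, p-values and counts of alternatives are thus a description.

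The lower genes were *LINC02595*, *LINC01198* and *LINC02245*. *LINC02595* had -0.78, -0.79 and -0.60 (mean -0.73 ± 0.11, SE, n = 3, limma adjusted p = 0.00556). *LINC01198* had -0.51, -0.66 and -0.56 (mean -0.57 ± 0.13, SE, n = 3, limma adjusted p = 0.0275). *LINC02245* had -0.48, -0.45 and -0.51 (mean -0.48 ± 0.09, SE, n = 3, limma adjusted p = 0.0112), and against the other arrays it stood at 0.08 (limma adjusted p = 0.70), as it was lower with siDONSON. Over the alternatives, *LINC02595* was past the threshold in 17 of 19, *LINC02245* in 15 of 19 and *LINC01198* in 13 of 19. *LINC02579* and *LINC00593* came next at -0.41 each and did not pass (limma adjusted p = 0.0622 and 0.161). Without A549-GE1, A549-GE2 or A549-GE3, 0, 0 and 1 genes were lower (5, 5 and 10 at an unadjusted p under 0.05) and 5, 5 and 6 higher. Without EBC-1 or SK-MES-1, 6 were lower, and without siDONSON-2 5.

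**Figure D3:**
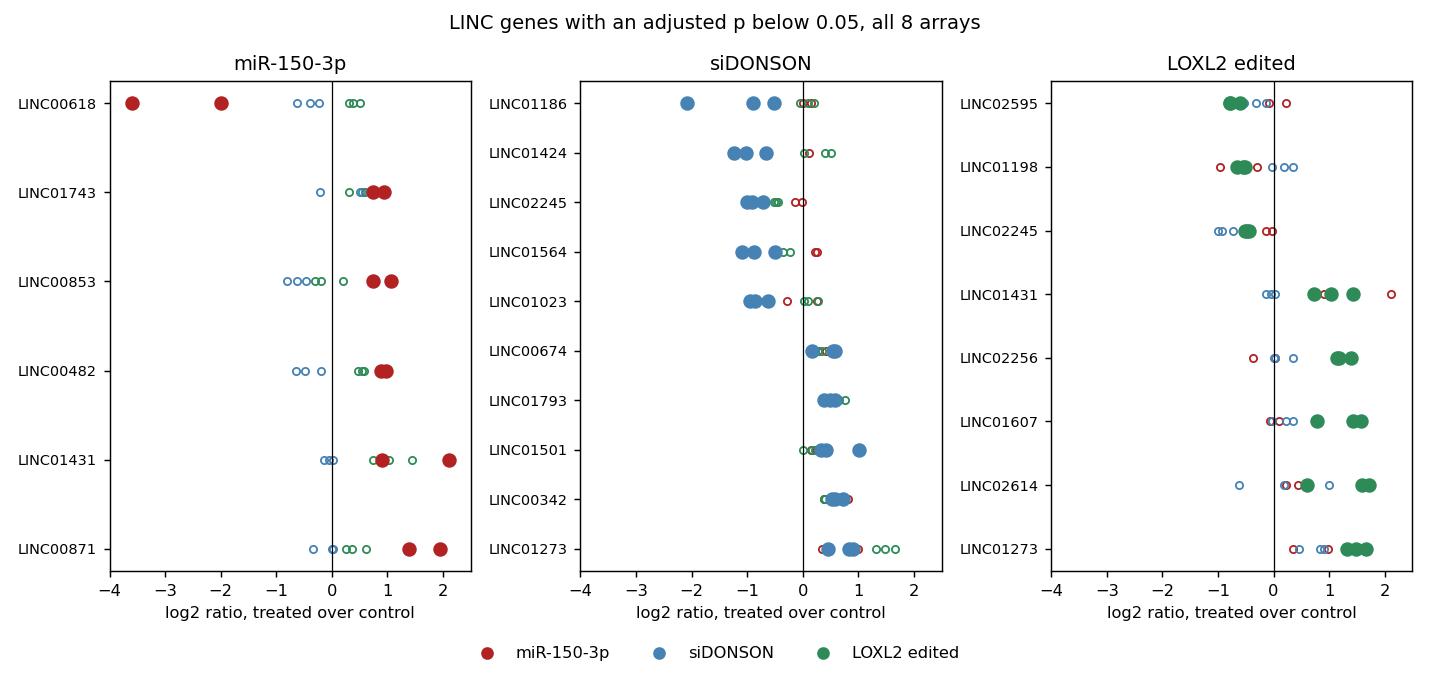
Log2 ratio of treated over control (horizontal) for the LINC genes with the lowest and highest means among those past the threshold in each comparison (1 panel each). Large filled points are the arrays of that comparison and small open points the other arrays, coloured by group. *LINC00618* lies at -3.59 and -2.0 with *miR-150-3p*, and *LINC02256* lies between 1.14 and 1.39 on the *LOXL2* arrays.

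Over the 3 comparisons, 45 of the 232 genes (19.4%) passed in at least 1, beside 25.3% of all genes tested, and 11 (4.74%) in at least 2, beside 3.83%. The fits share their estimate of the spread. *LINC00342* and *LINC01793* rose in all 3. *LINC01793* had ratios between 0.38 and 0.76 on the 8 arrays, and *LINC00342* between 0.38 and 0.81, so neither gene separated the treatments. The differences between a group and the other arrays did not pass for either gene. *LINC00482* passed in all 3 as well, but its call with *miR-150-3p* was lost without its dim probe, as above. It fell with siDONSON, with -0.19, -0.65 and -0.48, and rose on the A549 arrays, with 0.46, 0.55 and 0.57. *LINC00853* rose with *miR-150-3p* and fell with siDONSON, where it had -0.62, -0.47 and -0.81. The difference between siDONSON and the other arrays passed for *LINC00482* (limma adjusted p = 0.00682), *LINC00853* (limma adjusted p = 0.0208) and *LINC02298* (limma adjusted p = 0.00388). All of them were picked from these same values as called in opposite directions, so this difference adds no support. With the other arrays subtracted in this way, 2 genes were lower and 4 higher for *miR-150-3p*, 13 and 1 for siDONSON, and 5 and 10 for *LOXL2*. The shares of all genes called in this way are not given, so these counts do not set LINC genes apart.

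Other noncoding classes were set beside the LINC genes with the same fit. In antisense RNA genes, 2.57% were lower and 4% higher with *miR-150-3p*, 4.86% and 5.14% with siDONSON, and 2.29% and 11.4% with *LOXL2*. Their median ratios were 0.07, 0.01 and 0.12, beside 0.16, 0.04 and 0.13 for the LINC genes. In genes with an NM accession the medians were 0.02, 0.03 and 0.00. Of 21 snoRNA host genes, 2 were lower and 0 higher with *miR-150-3p*, 0 and 0 with siDONSON, and 3 and 0 with *LOXL2* (limma). Of 23 other lncRNAs known by name, 2 were higher with *miR-150-3p*, and *NEAT1*, the scaffold of paraspeckles, had 2.66 (EBC-1) and 0.92 (SK-MES-1).

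**Figure D4:**
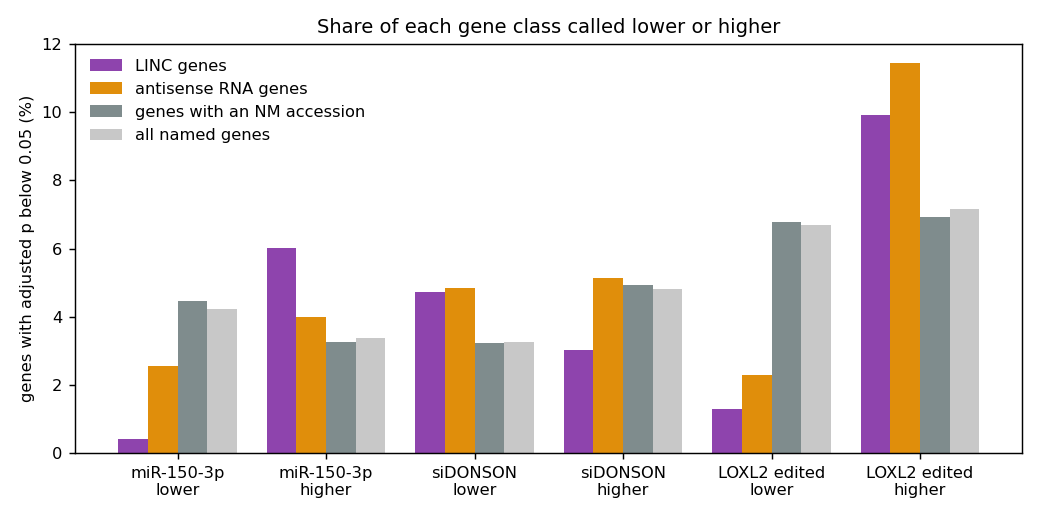
Share of genes (vertical axis, %) with a limma adjusted p below 0.05, lower or higher, in LINC genes (232), antisense RNA genes (350), genes with an NM accession (11391) and all named genes (12842). LINC genes stand at 0.431% for lower with *miR-150-3p* and at 9.91% for higher with *LOXL2*. The higher shares of LINC genes include genes that met the rule on some array of the group through red, the treated channel, alone.

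Of 22 LINC genes listed because they are described in cancer, 10 met the rule, and 11 were on the array but missed it, with detection on 0 to 6 arrays. Calls in this list were limited to *LINC00618* and *LINC00938* with *miR-150-3p*, *LINC00938* with siDONSON and *LINC00467* with *LOXL2*. *LINC00938* had 0.38, 0.47 and 0.34 with siDONSON (mean 0.40 ± 0.08, SE, n = 3, limma adjusted p = 0.0281) and -0.15, -0.42 and -0.25 on the A549 arrays, where it did not pass (limma adjusted p = 0.0666). *LINC00958*, known from lymphatic spread of bladder cancer, *LINC00662*, *LINC00665*, *LINC00667*, *LINC00673*, *LINC00963*, described in prostate cancer, and *LINC00472* passed in none. In *LINC00472* the arrays of a group differed widely, with 1.30 (EBC-1) and 0.21 (SK-MES-1), and 1.32, -0.06 and 0.56 on the siDONSON arrays. *LINC00662* stayed between -0.34 and 0.67 on all arrays.

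The green channel gave the level of each gene in the control cells. It was expressed as the log2 signal minus each array's 75th percentile over the probes used, and compared only between lines within a gene, with no test. Over the 135 genes above background in green on all arrays, the range between the line means had a median of 1.1, from 0.13 to 5.10. A range over 2 was found in 21 genes (15.6%), compared with 24.3% of the 11285 genes of any kind, and a range under 0.5 in 26. SBC-3 was the highest line for 53 genes (39.3%, beside 33.4% of all genes), EBC-1 for 31, SK-MES-1 for 30 and A549 for 21 (15.6%, beside 21.2%).

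The widest ranges were mostly those of genes that stood high in SBC-3. *LINC00540* was at 0.00, -0.03 and -0.01 on the SBC-3 arrays, at -5.07 in EBC-1, at -5.12 in SK-MES-1 and between -4.86 and -4.69 in A549. *LINC01315* was at -0.12 ± 0.01 (SD, n = 3) in SBC-3 and at -3.75 ± 0.05 (SD, n = 3) in A549, with -3.54 (EBC-1) and -5.10 (SK-MES-1). *LINC00482*, as the mean of 3 probes, was at -0.34 ± 0.03 (SD, n = 3) in SBC-3, -4.10 ± 0.10 (SD, n = 3) in A549, and the LUSQ lines at -4.59 (EBC-1) and -4.57 (SK-MES-1). In each of these genes SBC-3 lay far above the other lines, whose order was EBC-1 and A549 close together for *LINC01315* and EBC-1 and SK-MES-1 close together for the others.

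*LINC01503*, described in squamous cell carcinomas, was at -1.18 in SBC-3, -3.07 in EBC-1, -4.10 in A549 and -5.44 in SK-MES-1. *LINC01806* was at -1.08 in SBC-3, -3.90 in EBC-1, -4.45 in SK-MES-1 and -5.08 in A549. *LINC00842* had another order, with 1.24 ± 0.02 (SD, n = 3) in A549, 0.19 in SK-MES-1, -1.47 in EBC-1 and -3.24 ± 0.17 (SD, n = 3) in SBC-3. *LINC00958* had green above background on 7 arrays and so was not ranked, but it was at 0.73 ± 0.04 (SD, n = 3) in SBC-3 and between -5.56 and -4.45 in the other lines.

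The narrowest ranges belonged to *LINC01128* (0.13), *LINC01001* (0.14), *LINC01475* (0.17) and *LINC01101* (0.20). *LINC01001* lay between 0.93 and 1.1 on all 8 arrays. For *LINC01475*, the SD of 0.44 over the SBC-3 arrays exceeded the range between the lines, so its lines cannot be ordered. *LINC00618* was at -2.24 in SK-MES-1, -2.35 ± 0.03 (SD, n = 3) in A549, -2.42 in EBC-1 and -3.89 ± 0.05 (SD, n = 3) in SBC-3. A549 and the LUSQ lines thus had close control levels of the gene that fell with *miR-150-3p*, and SBC-3 a lower one.

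The nearest protein-coding gene of each LINC gene was taken from the RefSeq annotation (GRCh38.p14), and it was tested as well in 143 of the 232 cases. Signs of the mean ratio matched in 60.1% of these pairs for *miR-150-3p*, 51.7% for siDONSON and 54.5% for *LOXL2*. Pairs of genes with an NM accession and their nearest neighbour gave 52.5%, 51.5% and 55.8%. The line with the highest control level was the same in 42.0% of the LINC pairs and 40.4% of the others. Across pairs, Pearson's r of the mean ratios was 0.06, 0.06 and 0.07 for the LINC genes, and 0.06, 0.04 and 0.20 for the others.

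Single neighbours mostly had other ratios than the LINC gene beside them. *VRK1*, the kinase gene nearest to *LINC00618*, had -1.48 (EBC-1) and 0.05 (SK-MES-1) and did not pass (limma adjusted p = 0.153). *SMYD3*, nearest to *LINC01743*, had -0.67 and -0.89 with *miR-150-3p* (limma adjusted p = 0.0191), where *LINC01743* has no fold. *CEBPB*, a transcription factor gene nearest to *LINC01273*, had 0.48, 0.54 and 0.49 on the A549 arrays and did not pass (limma adjusted p = 0.252). *KRABD4* is the nearest coding gene of both *LINC01186* and *LINC02595*, and it had 0.11, 0.39 and 0.07 with siDONSON and 0.31, 0.23 and 0.17 on the A549 arrays. *ANXA8L1*, nearest to *LINC00842*, had control levels of 2.93 in SK-MES-1, 2.44 in A549, -0.36 in EBC-1 and -3.20 in SBC-3. It has near-identical copies that share sequence, so its values are uncertain.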

How the data were processed

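RNA of 4 lung cancer lines was measured on 8 Agilent arrays. The authors deposited intensities from Agilent Feature Extraction 12.1.1.1, background-subtracted, detrended and dye-normalized (linear and lowess) within each array, and a table of the whole series with the deposited log10 ratios, identical to those of the scanner files. Depth does not apply to arrays, and their number limits the precision.

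Log2 ratios of red over green were computed from the processed intensities. Outlier spots (81 to 133 of 60901 per array) were left out, and no spot was saturated (0). Probes were named through RefSeq accessions, of which 24782 of 50096 matched, giving 22439 genes. The headers name hg19 and the gene table GRCh38.p14, so that table gave names and neighbours only, and the promoters carry their own build. A gene's value is the mean of its probes above background on all arrays.

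Group means were tested in limma 3.58.1 (R 4.3.3, 5 residual degrees of freedom). On simulated data, a log2 change of 1 was recovered for 66 (*miR-150-3p*), 76 (siDONSON) and 74 (*LOXL2*) of 100 genes, and one of 2 for 93, 97 and 94. The simulated noise was normal and independent, with 1 spread per gene for all groups. The real spread differed between groups, so these rates do not measure recovery within a noisier group. As all arrays lie on 1 slide, no slide block was fitted. Alternatives were normexp (offset 50, on median signals, as the files hold no mean signals of the spots) with loess, median centring, other filters and probe rules, the deposited ratios, each group's own spread, subtraction of the other arrays, a replicate block and leaving out each array. These alternatives overlap. The deposited ratios are those of the main fit, and the filters on both channels and on green each left 135 LINC genes. The number of alternatives that a gene passed is thus no count of independent checks. For green levels, Aquantile or the median replaced the 75th percentile.

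Genes, lists and tests were chosen with earlier results of these data known. Named genes are the 5 lowest and 5 highest called per comparison, filled with uncalled ones, the 6 widest and 4 narrowest control ranges, a list of known LINC genes, neighbours, genes at the edge of the rule and those most like *LINC00618*.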

Additional observations from a re-analysis of the deposited data

How the results depend on the processing

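Of the counts of LINC genes past the threshold, those with the deposited log10 ratios were the same and those with normexp and loess within 1.5 times. The genes were not always the same, as 9 of 24 named calls were lost with normexp and loess, 16 of 24 with each group's own spread and 9 of 18 with the replicate block. Median centring gave 2 lower genes with *miR-150-3p* in place of 1. Requiring both channels, or green, above background on all arrays left 135 genes, with 2 lower and 9 higher for *miR-150-3p*. Without a filter on dim probes (1128 LINC genes), 11 were lower and 2 higher for *miR-150-3p*, 238 and 18 for siDONSON, and 392 and 45 for *LOXL2*. These counts include undetected genes, and 571 of the 1128 had no probe above background on any array. *LINC02492* was well above background in neither channel of the A549 arrays. It still had log2 ratios of -0.84, -0.89 and -0.86 there and was called lower (limma adjusted p = 0.00169). Probes counted per array gave 4 lower for *miR-150-3p*, 11 higher for siDONSON, and 10 lower and 38 higher for *LOXL2*, and the brightest probe gave 11 higher for siDONSON. With the other arrays subtracted, *miR-150-3p* had 2 lower and 4 higher, siDONSON 1 higher, and *LOXL2* 5 lower and 10 higher. With each group's own spread in limma, the counts were 0 and 0 for *miR-150-3p* (5 and 27 at an unadjusted p under 0.05), 0 and 0 for siDONSON (19 and 22), and 14 lower and 67 higher for *LOXL2*. Leaving out 1 array at a time gave 1 to 8 lower and 0 to 25 higher for *miR-150-3p*, 1 to 13 and 1 to 11 for siDONSON, and 0 to 6 and 5 to 31 for *LOXL2*. For settings other than the main fit, the shares of all genes called are not given. The counts under those settings thus do not set LINC genes apart from genes in general. The causes were not tested.

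The array numbers name different siRNAs in SBC-3 and edited samples in A549, so by design they pair no samples. Same-numbered arrays correlated at -0.02, -0.02 and -0.01 in their deviations, and a shared processing batch was not tested. With the replicate block, limma called 3 lower and 0 higher for siDONSON (28 higher at an unadjusted p under 0.05), and 2 lower and 9 higher for *LOXL2*.

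Among the 24 named calls, directions turned for *LINC01743* with *miR-150-3p* (-0.26 without the filter) and, with the other arrays subtracted, for *LINC01273* (-0.42) and *LINC01793* (-0.15) with siDONSON and *LINC02245* (0.080) with *LOXL2*. Of genes not called, *LINC00593* turned to 0.087 with *LOXL2* without the filter. The counts of genes with the highest control level per line stayed within 1.5 times under both other scalings. Dim control signals limit the ratios of 97 of the 232 genes.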

Other observations

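Some LINC genes outside the rule were above background in the control channel of 1 cell line and in neither channel of the other lines. There were 3 in EBC-1, 14 in SK-MES-1, 15 in SBC-3 and 6 in A549. These counts do not rank the lines, as SBC-3 and A549 had 3 arrays each and the LUSQ lines 1 each. The EBC-1 array had 41.1% of its spots well above background in green, and the SK-MES-1 array 46.3%. The part of this difference in the counts was not tested. Such counts for genes of any kind are not given, so LINC genes are not set apart by them. The brightest of these LINC genes in each line are named here, chosen after their values were seen. In EBC-1 this was *LINC02894*, with a control signal of 214. In SK-MES-1 it was *LINC01204*, with 455. In SBC-3 it was *LINC01235*, with 2361, 2197 and 2340 on the 3 arrays, and log2 ratios of -1.14, 0.33 and -0.38 with siDONSON-1, siDONSON-2 and siDONSON-3.

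In A549 it was *LINC02582*. Its control signal was 1012, 945 and 1019 on A549-GE1, A549-GE2 and A549-GE3, and its signal in the edited cells 89.5, 117 and 60.8, well above background on all 3 arrays. The log2 ratios of this probe were -3.50, -3.02 and -4.07. The gene was chosen for its bright control signal, so these ratios are a description, with no test. All other lines read below background, so the gene entered no comparison of the LINC genes detected on all arrays.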
